A study of Mus musculus with 2 samples.

Results

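The first 20 Mb of mouse chromosome 10 was examined in allele-resolved ATAC-seq, which tags open DNA with a transposase, in the embryonic stem cell line F121-6. It was chosen by its deposited counts, as the stretch of the genome with a high share of counts from the 129 allele in both replicates, and its members are the 50 kb windows of chromosome 10 that end at or below 20 Mb. They number 327 of the 43941 windows of the table, against 2137 windows in the rest of chromosome 10 and 41477 on the other 18 autosomes. F121-6 is a female hybrid line with a chromosome set of 129 mice and a set of castaneus (CAS) mice. It was grown with LIF and serum on mitomycin-C-inactivated embryonic fibroblast feeders, without any further treatment in the labels. The 2 replicates form 1 group, so the comparison is between the 129 and the CAS counts of the same library. The labels do not say whether the replicates were separate cultures, and the strain of the feeder cells is not given in the sources used here.

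Mouse chromosomes have their centromere at the low-coordinate end, so the windows begin next to pericentromeric DNA. Open chromatin is found mainly at gene starts and at distal enhancers, and gene starts rich in CpG dinucleotides are open in most cell types. In a hybrid cell both alleles lie in the same nucleus, and reads that cover a base at which the parents differ can be assigned to one of them. The stretch holds Esr1, the gene of oestrogen receptor alpha, along with Akap12, Syne1, Utrn, Lats1, the imprinted gene Plagl1 and Tnfaip3.

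Between 3 and 20 Mb there are 340 window positions, of which 13 were not analysed here, 10 of them before 3.6 Mb. In all, 78 coding genes of RefSeq on GRCm38.p6 overlapped a window. The sequences that follow are the 250 bases before 5 annotated transcript starts, from RefSeq on GRCm38.p6, read 5′ to 3′ on the strand of the gene. They belong to the C57BL/6J reference and not to either allele. Esr1 is shown because some figures give distances from its annotated start. Mthfd1l and Fbxo30 are shown because their start windows held counts on 129 alone (Mthfd1l) or nearly equal alleles (Fbxo30). Capitals mark CpG dinucleotides.

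Mthfd1l, chr10:3972825-3973074, plus strand, 7 CpG: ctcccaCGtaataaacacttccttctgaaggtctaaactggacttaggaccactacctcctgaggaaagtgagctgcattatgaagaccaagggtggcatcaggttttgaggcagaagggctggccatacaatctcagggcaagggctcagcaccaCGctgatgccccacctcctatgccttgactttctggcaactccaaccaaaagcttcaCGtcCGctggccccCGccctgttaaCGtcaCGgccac
Esr1, upstream start, chr10:4611739-4611988, plus strand, 4 CpG: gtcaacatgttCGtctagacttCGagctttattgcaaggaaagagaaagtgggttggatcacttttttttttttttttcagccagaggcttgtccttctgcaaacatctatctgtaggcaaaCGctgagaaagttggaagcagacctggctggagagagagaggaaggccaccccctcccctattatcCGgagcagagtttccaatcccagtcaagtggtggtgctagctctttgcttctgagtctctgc
Esr1, downstream start, chr10:4709908-4710157, plus strand, 7 CpG: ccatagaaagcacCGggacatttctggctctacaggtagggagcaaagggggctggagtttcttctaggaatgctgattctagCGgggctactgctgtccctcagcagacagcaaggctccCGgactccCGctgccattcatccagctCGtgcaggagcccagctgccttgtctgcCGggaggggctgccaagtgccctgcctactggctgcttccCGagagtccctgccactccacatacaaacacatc
Zbtb2, chr10:4388109-4388358, minus strand, 28 CpG: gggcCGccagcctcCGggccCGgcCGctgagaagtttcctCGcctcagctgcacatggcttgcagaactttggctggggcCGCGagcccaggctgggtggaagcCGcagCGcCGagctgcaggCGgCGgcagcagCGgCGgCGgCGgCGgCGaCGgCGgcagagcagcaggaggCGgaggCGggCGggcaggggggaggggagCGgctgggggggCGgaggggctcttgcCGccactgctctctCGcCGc
Fbxo30, chr10:11281337-11281586, plus strand, 40 CpG: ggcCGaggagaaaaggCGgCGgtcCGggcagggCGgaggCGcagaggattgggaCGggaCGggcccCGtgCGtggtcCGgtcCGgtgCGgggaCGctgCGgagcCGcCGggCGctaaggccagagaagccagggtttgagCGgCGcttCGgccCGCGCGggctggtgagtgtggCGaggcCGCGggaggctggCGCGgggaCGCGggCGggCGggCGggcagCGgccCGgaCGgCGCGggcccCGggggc

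The window with the Mthfd1l start held counts on 129 alone, 5 in replicate 1 and 6 in replicate 2. The window of the downstream Esr1 start held 2 and 3 counts on 129 and 0 on CAS, and the window of the upstream Esr1 start held 0 in all 4 columns. The Zbtb2 window had 4 and 4 counts on 129 against 2 and 3 on CAS. The Fbxo30 window, whose start has the most CpG of the 5, had 4 and 3 on 129 against 3 and 3 on CAS. These 5 starts are examples, and other starts did not follow their order by CpG. The Stxbp5 start, with 40 CpG, had 1 and 0 counts on 129 and 0 on CAS. The Hebp2 start, with 8 CpG, had 1 and 1 on 129 against 2 and 2 on CAS.

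The column totals of the table were 44026 (129) and 46128 (CAS) for replicate 1 and 59812 and 59995 for replicate 2, with values from 0 to 18 per window. The counted unit and the assignment to alleles, not given in the sources used here, leave the depth in reads unknown. Markers of embryonic stem cells carried counts at 9 of the 9 listed genes analysed, with a mean of 10.3 counts per window in replicate 1 and 12.9 in replicate 2 (both alleles summed over 15 windows). In the 20 windows of 13 fibroblast markers the mean was 1.95 and 2.40, near the table's mean of 2.05 and 2.73. Of these markers 12 had a count and Postn was at 0. Both marker lists were balanced between alleles, the stem cell list with 77 counts on 129 and 78 on CAS, then 96 and 97 in the second library, and the fibroblast list with 19 and 20, then 23 and 25. Their part in the values of chromosome 10 was not tested.

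Over the first 20 Mb, 129 contributed more than CAS in both replicates. In replicate 1 there were 279 counts on 129 and 126 on CAS, and in replicate 2 there were 373 and 178. The 129 share, or 129 counts as a percentage of all allelic counts, was 68.3% ± 0.844 (SD, n = 2). It was 68.9% in replicate 1 (exact Clopper-Pearson 95% interval 64.1 to 73.4%) and 67.7% in replicate 2 (63.6 to 71.6%). In the rest of chromosome 10 it was 58.9% (57.3 to 60.4%) and 54.5% (53.2 to 55.8%), and on the other autosomes 48.3% and 49.6%. The share was thus 10.0 percentage points above the rest of chromosome 10 in replicate 1 and 13.2 points in replicate 2. These values chose the stretch and are given as a description, with no test. Intervals cover counting error only. The allelic split of windows with 4 or more counts varied less than independent reads would, at 0.473 and 0.432 of the binomial variance in replicates 1 and 2 (35 and 50 windows). In the rest of chromosome 10 it was at 0.328 and 0.425. The intervals assume independent counts and are therefore approximate. In bulk cells, fewer cells with an open site and less opening per cell cannot be told apart, and the copy number of each allele was not measured here.

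Both alleles had fewer counts per window than the average of the rest of the chromosome, and CAS was lower by more. The 129 allele averaged 0.853 and 1.14 counts per window (replicates 1 and 2) in the first 20 Mb, against 1.09 and 1.54 in the rest of chromosome 10 and 0.998 and 1.35 on the other autosomes. The CAS allele averaged 0.385 and 0.544, against 0.763 and 1.29 in the rest of the chromosome and 1.07 and 1.38 on the other autosomes. As a ratio of means, 129 was at 0.760 ± 0.0303 of the rest of the chromosome and CAS at 0.464 ± 0.0587 (SD, n = 2). Against the other autosomes, 129 was at 0.849 ± 0.00831 and CAS at 0.378 ± 0.0251 (SD, n = 2). The summed signal of both alleles, which did not choose the stretch, was 1.24 and 1.69 counts per window against 1.85 and 2.83 in the rest of chromosome 10. It lay at 0.631 ± 0.0517 of the rest (SD, n = 2), in 1 group of 2 libraries that gives values and no test. Low signal was shared by the adjacent segment from 20 to 30 Mb, where the sum was 1.16 and 1.55, with 0.710 and 0.913 counts per window on 129 and 0.454 and 0.634 on CAS. The 129 level was also lower from 40 to 50 Mb, at 0.702 and 0.970. Windows at 0 in all 4 columns made up 36.4% of the first 20 Mb, 19.7% of the rest of the chromosome, 33.9% from 20 to 30 Mb and 21.7% of the other autosomes.

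The excess of 129 came with many windows without any CAS count. Of 150 windows with a 129 count in both replicates, 41 (27.3%) had no CAS count in either. In the rest of chromosome 10 that was 109 of 1117 (9.76%), and on the other autosomes 1047 of 19813 (5.28%). The reverse was not seen: of 83 windows with a CAS count in both replicates, 0 lacked 129 counts. In the rest of the chromosome 36 of 916 did (3.93%), and on the other autosomes 1258 of 20498 (6.14%). The 83 windows are few and share their libraries, and the allelic contrast chose the stretch, so these shares are descriptions only.

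Window by window, 82 of the 208 windows with a count were higher on 129 in both replicates, or 39.4%, and 3 were higher on CAS in both, or 1.44%. The background over all windows of the table with a count is 11.4% for 129 and 12.6% for CAS. In the rest of chromosome 10 it was 20.8% and 5.0%, and from 20 to 30 Mb 25.6% and 6.61%. A further 5 windows had opposite directions, and 118 were tied in at least 1 replicate. The 41 windows with counts on 129 alone in both replicates were 19.7% of the 208, beside a background of 3.48%. Such windows were 6.36% in the rest of chromosome 10 and 12.4% from 20 to 30 Mb. Since the contrast chose the stretch, these shares are descriptions only. The log2 ratio of the alleles per window, with 0.5 added to each count, correlated between replicates at Pearson's r = 0.286 and Spearman's coefficient = 0.241 over the 208 windows, and at Pearson's r = 0.259 and Spearman's coefficient = 0.229 over 1715 windows of the rest of the chromosome. These windows share their libraries and their low counts.

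Along the stretch the 129 share was highest at the centromeric end. Before 10 Mb, 121 counts lay on 129 and 39 on CAS in replicate 1, and 148 and 58 in replicate 2, which is 75.6% (68.2 to 82.1%) and 71.8% (65.2 to 77.9%). From 10 to 20 Mb it was 64.5% (58.1 to 70.5%) and 65.2% (59.9 to 70.2%), from 158 and 87 counts and from 225 and 120. From 20 to 30 Mb, just outside, it was 61.0% (54.1 to 67.6%) and 59.0% (53.0 to 64.8%), and from 30 to 40 Mb 60.5% and 59.5%. The segment from 50 to 60 Mb had the lowest mean share of the full 10 Mb segments, at 53.6% and 50.6%. In 5 Mb segments the mean CAS count per window was 0.367, 0.286, 0.515 and 0.36 in replicate 1 (3 to 5, 5 to 10, 10 to 15 and 15 to 20 Mb), while that of 129 was 1.40, 0.806, 1.00 and 0.590. In replicate 2 the CAS means were 0.567, 0.418, 0.707 and 0.50, and the 129 means 1.5, 1.05, 1.36 and 0.90. Across the 17 bins of 1 Mb, the share was related to position, with lower shares farther from the centromere, at Pearson's r = -0.77 and Spearman's coefficient = -0.79 in replicate 1, and at Pearson's r = -0.43 and Spearman's coefficient = -0.54 in replicate 2. The bins are neighbours on 1 chromosome and share 2 libraries, and the relation was weaker in replicate 2.

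**Figure D1:**
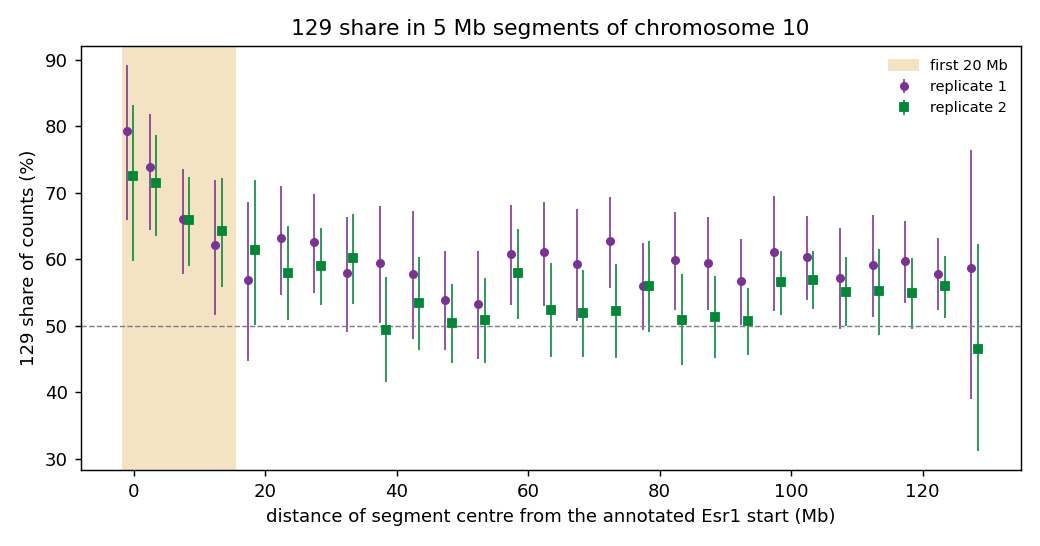
The 129 share of counts (%) in 5 Mb segments of chromosome 10 against the distance of the segment centre from the annotated Esr1 start (Mb), with exact 95% intervals for counting error. Circles are replicate 1 and squares replicate 2; the shaded segments of the first 20 Mb run between 79.2% and 62.1%, and the dashed line marks 50%.

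Of the 17 bins of 1 Mb, 16 were higher on 129 in both replicates, or 94.1%, beside 23.8% of all bins of the table with a count and 72.1% of the bins in the rest of chromosome 10. The remaining bin, from 15 to 16 Mb, had 6 counts on each allele in replicate 1, and 15 on 129 against 11 on CAS in replicate 2. This was the lowest share of the bins with 10 or more counts in each replicate. The highest such share was from 6 to 7 Mb, around Oprm1, the mu opioid receptor gene, with 12 and 2 counts and then 18 and 5, or 85.7% and 78.3%. The bins between 3 and 8 Mb lay between 72.2% and 85.7% over both replicates, with intervals that overlap, so their order is not settled. Across the 20 Mb boundary the last bin inside had shares of 58.8% and 61.9%, from 10 counts on 129 and 7 on CAS, then 13 and 8. The first bin outside had 66.7% and 70.0%, from 6 and 3, then 7 and 3. These counts are too few to show whether the share steps at the boundary. In 5 Mb segments it was 62.1% and 64.3% from 15 to 20 Mb. From 20 to 25 Mb it was 56.9% and 61.45%, with overlapping intervals.

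**Figure D2:**
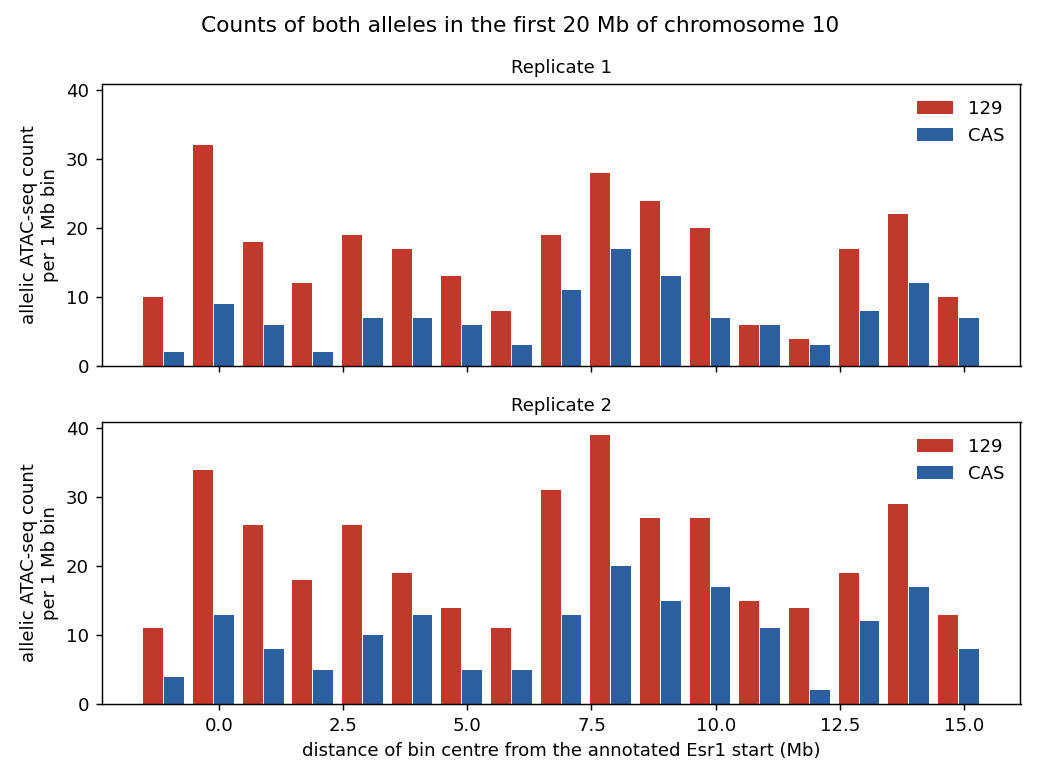
Allelic ATAC-seq counts per 1 Mb bin in the first 20 Mb of chromosome 10, by the distance of the bin centre from the annotated Esr1 start (Mb), with replicate 1 above replicate 2. Red bars are 129 and blue bars CAS; 129 was higher in both replicates in 16 of 17 bins, and the bin with equal bars in replicate 1 is the one from 15 to 16 Mb.

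The starts of the other autosomes did not have such shares. Over the first 20 Mb of the other 18 autosomes the 129 share ran between 41.7% (chromosome 14) and 55.4% (chromosome 2) in replicate 1, with a median of 48.1%. In replicate 2 it ran between 45.5% (chromosome 8) and 58.6% (chromosome 11), with a median of 50.7%. The 129 level of chromosome 10, 0.853 and 1.14 counts per window, lay within their range of 0.505 to 1.48 and 0.574 to 1.60. The CAS level, 0.385 and 0.544, lay below the lowest of them, 0.563 in replicate 1 and 0.673 in replicate 2, both on chromosome 18.

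**Figure D3:**
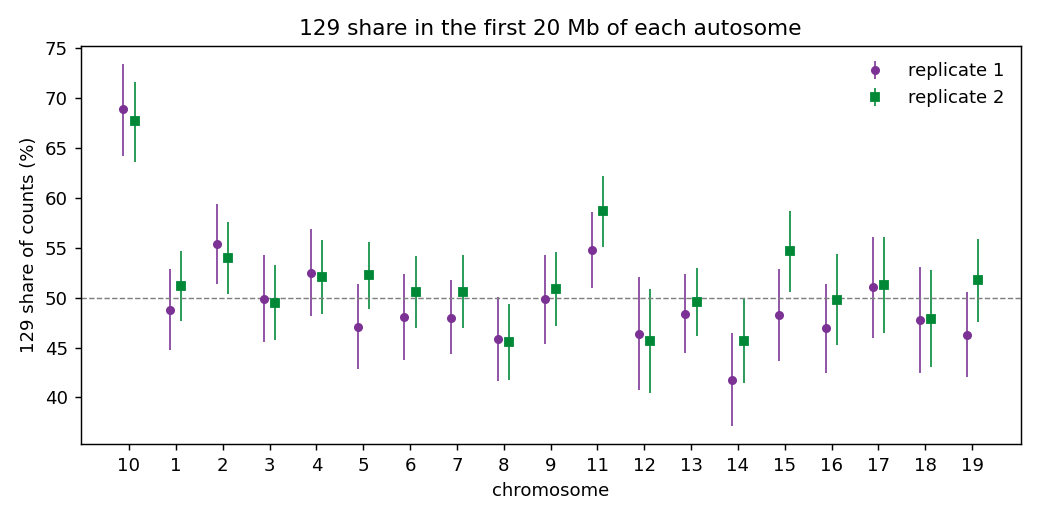
The 129 share of counts (%) in the first 20 Mb of each autosome, with chromosome 10 at the left, and exact 95% intervals for counting error. Circles are replicate 1 and squares replicate 2; chromosome 10 lies at 68.9% and 67.7%, and the other 18 autosomes between 41.7% and 58.6%.

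A similar part of the windows overlapped genes as in the rest of the chromosome, with somewhat fewer gene starts. Windows that overlap a coding gene made up 57.8% of the first 20 Mb and 57.7% of the rest of the chromosome. Windows with a listed coding gene start made up 19.3% and 24.4%. Of the 78 coding genes, 66 had a listed start in a window analysed here. The class with gene body only can therefore hold starts that were not listed, such as that of Sf3b5. In the 63 windows with a gene start the 129 share was 65.6% and 65.2% in replicates 1 and 2. It was 71.2% and 68.9% in 126 windows with gene body only, and 70.4% and 69.0% in 138 windows with no coding gene. All 3 classes had overlapping intervals. The CAS mean at gene starts was 0.825 and 1.00 counts per window, or 0.573 ± 0.0355 of the gene starts in the rest of the chromosome (SD, n = 2). In windows with no coding gene it was 0.21 and 0.326, or 0.387 ± 0.0854 (SD, n = 2). The corresponding 129 ratios were 0.870 ± 0.0571 and 0.643 ± 0.110 (SD, n = 2).

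**Figure D4:**
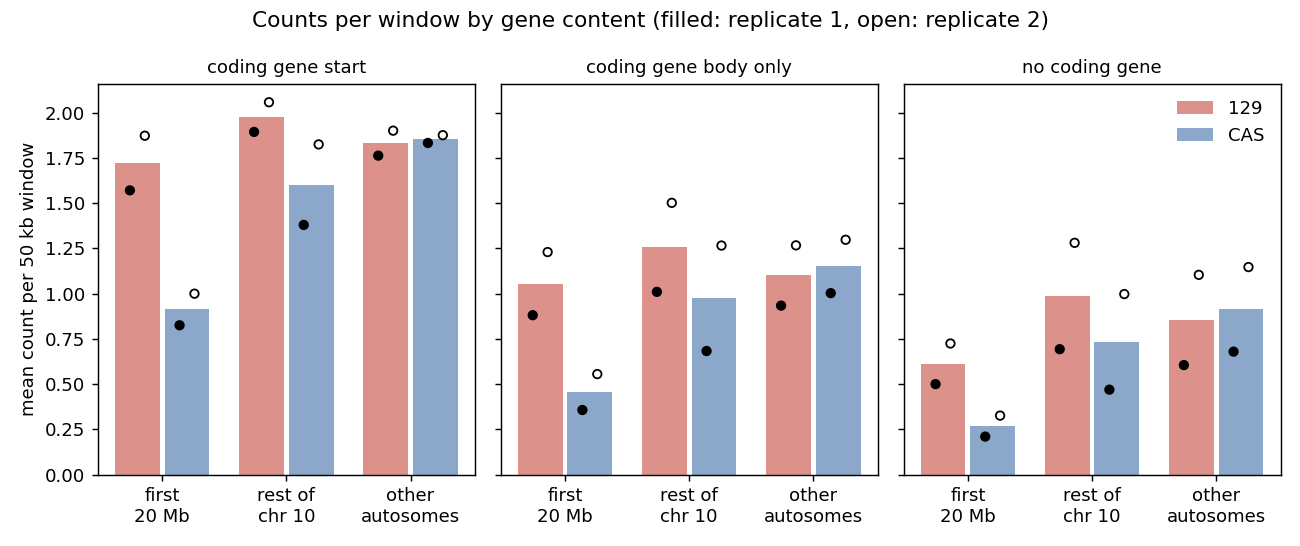
Mean count per 50 kb window of 129 (red) and CAS (blue) in the first 20 Mb of chromosome 10, its rest and the other autosomes. Panels show windows with a listed coding gene start, with a coding gene but no listed start (body only), and with no coding gene. Bars are the mean of 2 replicates, filled points replicate 1 and open points replicate 2; at gene starts of the first 20 Mb 129 had 1.57 and 1.87 and CAS 0.825 and 1.00.

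Windows with gene starts rich in CpG were more nearly balanced than windows whose starts have few. Of the 63 windows, 34 held a start with 10 or more CpG in the 250 bases before it, and their 129 share was 61.8% and 63.6%. In the 29 with fewer CpG it was 73.5% and 68.3%. The difference is larger in replicate 1, and the intervals, 51.6 to 71.2% and 58.9 to 85.1% in that replicate, overlap. CAS counts were found in 26 and 24 of the 34 CpG-rich windows, and in 9 and 13 of the 29 others, while 129 counts were found in 32 and 32 and in 20 and 18. In the rest of chromosome 10 the shares were 58.0% and 53.5% in 313 CpG-rich windows and 57.6% and 51.8% in 208 others. Starts with 10 or more CpG were 47.6% of the 82 listed for the stretch and 51.3% of 20085 listed for all coding genes.

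The 129 excess, summed over the replicates, was 6 or more in 8 windows, of which 5 lay before 5 Mb. A further 9 windows tied at an excess of 5, of which 2 lay before 5 Mb, and those 2 are described as the first by position. The largest was the Mthfd1l start (10, 3950001 to 4000000), shared with Plekhg1, a gene of a guanine nucleotide exchange factor, with 5 and 6 counts on 129 and 0 on CAS. A second Mthfd1l window (4050001 to 4100000), inside this gene of mitochondrial folate metabolism, had 3 and 3 against 0. Across its 5 windows Mthfd1l had 11 and 12 counts on 129 and 1 and 2 on CAS. Akap12, which encodes a scaffold of protein kinase A, had windows with 5 and 8 against 2 and 4 (4250001 to 4300000) and with 5 and 5 against 2 and 1 (4300001 to 4350000). The neighbouring window without a coding gene (4200001 to 4250000) had 4 and 3 against 1 and 1. The Armt1 and Ccdc170 window (4450001 to 4500000) had 4 and 3 against 0 and 1. The 4 adjacent windows from 4200001 to 4400000 formed the longest run higher on 129 in both replicates, where 129 held 18 and 20 counts against 7 and 9. The other 3 of the 8 were Lrp11 with Pcmt1, a protein repair methyltransferase gene (7600001 to 7650000, 4 and 6 against 2 and 2), the splicing factor gene Sf3b5 (13000001 to 13050000, 5 and 4 against 1 and 2) and Nhsl1 (18450001 to 18500000, 4 and 5 against 1 and 1).

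Esr1 itself carried few counts. Over its 9 windows (gene 4611989 to 5005633) it had 3 counts on 129 in replicate 1 and 5 in replicate 2, and 0 on CAS in both. Of these, 2 and 3 lay in the window of its downstream start (4700001 to 4750000). Another 0 and 2 lay in a window shared with Syne1 (5000001 to 5050000), and 6 Esr1 windows were empty in every column. Esr1 lies in the longest run of windows without a CAS count, 14 windows from 4500001 to 5200000 that held 6 and 9 counts on 129. Most windows of this run were at 0 on 129 too, among them the 4 from 4500001 to 4700000. The longest run without 129 counts in the first 20 Mb had 5 windows. A run of this length lay from 16900001 to 17150000, with no coding gene, and was at 0 on CAS too. Beyond 20 Mb the longest run was 9 windows for either allele. The next longest run without a CAS count, 10 windows from 15800001 to 16300000 with no coding gene, held 1 and 6 counts on 129. Oprm1 lay in a run of 8 windows (6650001 to 7050000), with 3 and 7 counts on 129, and 4 such runs of 8 or more were found in all.

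The 3 windows with CAS higher in both replicates differed by 1 or 2 counts. They were a window with no coding gene, 978543 bp from Nmbr (15750001 to 15800000), where 129 held 1 and 2 counts against 2 and 4, the start of Stx11, a gene of vesicle fusion in immune cells (12950001 to 13000000, 1 and 1 against 2 and 2), and the start of Hebp2 (18500001 to 18550000, 1 and 1 against 2 and 2). The other window that Stx11 overlaps (12900001 to 12950000) was nearly balanced, at 3 and 4 against 3 and 3.

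The most counts over both alleles, a sum of 12 or more, were found in 13 windows, 5 of them tied at 12. Of the 13, 9 were higher on 129 in both replicates and 12 in at least 1, and the window from 17550001 to 17600000 had 3 counts in each column. Among the 36 windows of the stretch with a sum of 8 or more, 58.3% were higher on 129 in both replicates. In the same class it was 31.4% in the rest of chromosome 10 and 15.1% on the other autosomes. The window with the highest sum was in Utrn, the gene of the dystrophin relative utrophin (12550001 to 12600000), with 4 and 8 on 129 against 4 and 4 on CAS. Next was Akap12, then the Lrp11 and Pcmt1 window and the start of the zinc finger gene Hivep2 (13950001 to 14000000, 5 and 4 against 3 and 2). The window shared by Pcmt1, the nucleoporin gene Nup43 and Lats1, a Hippo pathway kinase gene (7650001 to 7700000), had 3 and 5 against 1 and 3. The start of Sash1 (8850001 to 8900000) had 3 and 5 against 2 and 2.

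Summed over the windows of each gene, 49 of the 71 coding genes with a count were higher on 129 in both replicates and 2 were higher on CAS. A further 20 were tied or mixed, and 7 genes were at 0. The 49 genes are 69.0% of the 71, which is the share to set beside the gene lists that follow. Over all coding genes of the table with a count, 14.5% were higher on 129 in both replicates. Neighbouring genes share windows and are not independent. A gene's counts are those of the windows it overlaps, and for Map3k5 of the 2 of its 5 windows before 20 Mb.

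**Figure D5:**
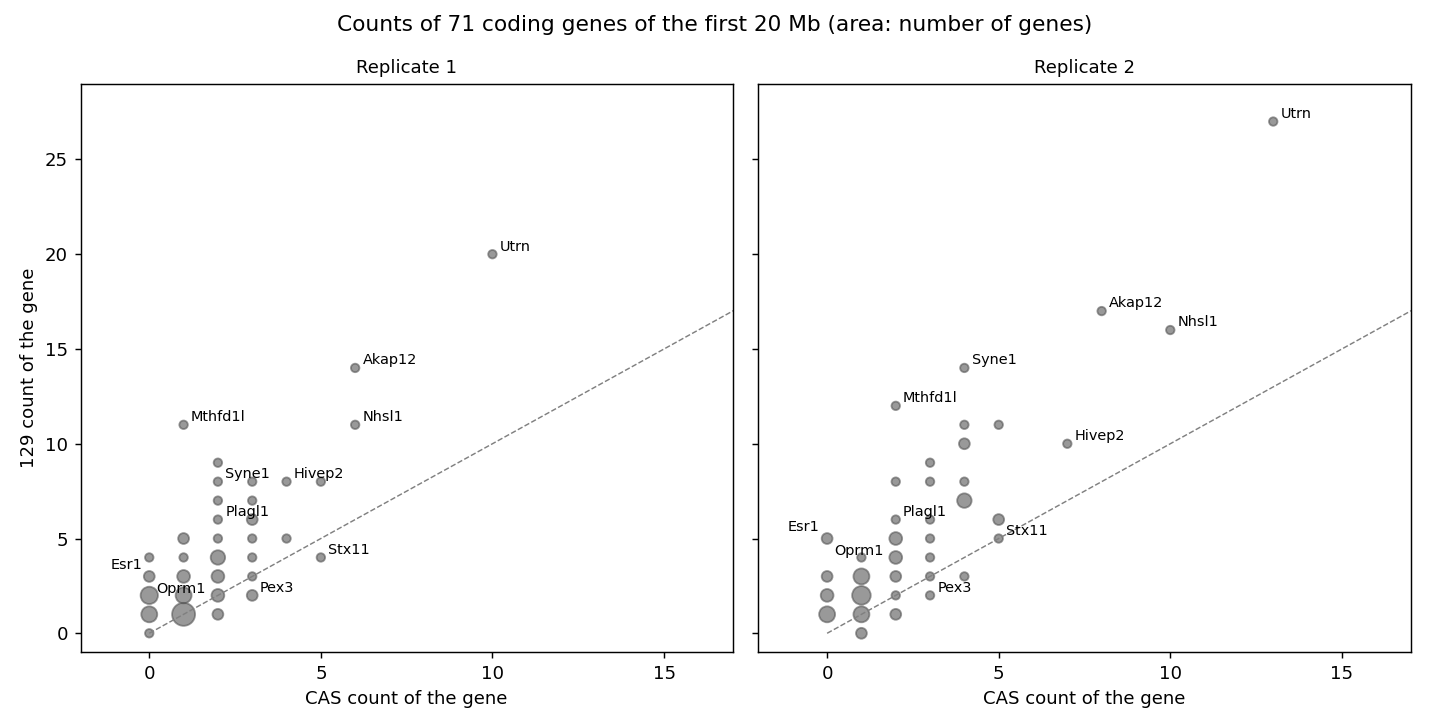
The 129 count against the CAS count of each of the 71 coding genes of the first 20 Mb with a count, in replicate 1 (left) and replicate 2 (right), where the area of a point shows the number of genes at it and the dashed line marks equal counts. Utrn (20 and 27 on 129, 10 and 13 on CAS) had the most counts, and Esr1 and Oprm1 lie at 0 on CAS.

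Of 9 receptor and peptide genes with a count, 6 were higher on 129 in both replicates and 0 on CAS, near the share over all genes of the stretch. Oprm1 had 3 and 5 counts on 129 against 0 on CAS. Vip, which encodes a neuropeptide, had 1 and 1 against 0, and shares its window with Myct1. Adgrg6, an adhesion receptor gene, had 6 and 7 on 129 against 3 and 4 on CAS, and Lrp11 had 6 and 8 against 3 and 3. Ifngr1, the interferon gamma receptor gene, and Nmbr each had 1 and 1 on either allele, Il20ra had 2 and 1 against 2 and 2, and Il22ra2 was at 0.

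Cytoskeletal, nuclear envelope and vesicle genes held the most counts, with 69 and 95 on the 129 allele against 32 and 46 (53 windows). Of 12 with a count, 9 were higher on 129 in both replicates, close to the share of all genes. Syne1, whose product nesprin-1 ties the nuclear envelope to the cytoskeleton, had 8 and 14 on 129 against 2 and 4 on CAS. Utrn had 20 and 27 against 10 and 13, Akap12 14 and 17 against 6 and 8, and Nhsl1 11 and 16 against 6 and 10. Katna1, a microtubule-severing katanin gene, had 3 and 3 against 2 and 1. Rab32 had 1 and 3 against 1 and 1, Txlnb 2 and 3 against 3 and 3, Perp 1 and 1 on either allele, and Ppp1r14c was at 0.

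Transcription, chromatin and cell cycle genes had 9 of 12 with a count higher on 129 in both replicates and 0 on CAS, again close to the share of all genes. Plagl1, an imprinted gene of a zinc finger factor, had 6 and 6 on 129 against 2 and 2 on CAS. Which strain was the mother was not used here. Fbxo5, an inhibitor of the anaphase-promoting complex, had 4 and 7 against 3 and 4, and Lats1 had 4 and 7 against 2 and 4. Cited2, a partner of the coactivators CBP and p300, had 3 and 2 against 1 and 1, and the ubiquitin ligase gene Shprh 3 and 8 against 2 and 4. The others, Ltv1, Reps1 and Ect2l, were tied in 1 replicate.

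The 6 genes of GTPase regulators and scaffolds were all higher on 129 in both replicates, beside 69.0% of all genes of the stretch with a count. All 6 lie before 10 Mb. There 50.6% of the windows with a count were higher on 129 in both replicates, against 32.3% from 10 to 20 Mb. The part of position in this tally was not tested. Plekhg1 had 9 and 10 on 129 against 2 and 4 on CAS, Samd5 had 8 and 10 against 5 and 4, and Ipcef1 had 2 and 4 against 0 and 1. Together, in 28 windows, 129 held 28 and 32 counts against 9 and 13. Mthfd1l and Plekhg1 share the window with the largest excess.

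Immune and stress signalling genes had 5 of 9 with a count higher on 129 in both replicates and 0 on CAS. Over all genes of the stretch with a count, 69.0% were higher on 129. Hivep2 had 8 and 10 on 129 against 4 and 7 on CAS, Sash1 had 7 and 9 against 2 and 3, and Rgs17, a regulator of G protein signalling, had 8 and 8 against 3 and 2. Tab2, an adaptor of the kinase TAK1, had 1 and 1 against 0. Tnfaip3, which encodes the NF-kappa-B inhibitor A20, had 1 and 1 on either allele, and Stx11 had 4 and 5 against 5 and 5.

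Mitochondrial, peroxisomal and metabolic genes were the most mixed gene by gene, with 4 of 11 higher on 129 in both replicates and 2 on CAS. The share over all genes of the stretch was 69.0%. Summed over their 29 windows, 129 held 33 and 50 counts against 19 and 25 on CAS. That is a 129 share of 63.5% and 66.7%, beside 68.9% and 67.7% for the stretch. Mthfd1l is described above, and Epm2a, the laforin gene of glycogen metabolism, had 5 and 11 on 129 against 3 and 4 on CAS. Pex3, a peroxisome assembly gene, had 2 and 2 against 3 and 3 on CAS, and Hebp2 had 1 and 1 against 2 and 2. Adat2, a transfer RNA deaminase gene that shares a window with Pex3, had 1 and 2 against 2 and 2. These genes are spread over the stretch, and Pex3, Adat2, Fuca2 and Aig1 lie together between 13500570 and 13869038.

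The longest run of windows with no coding gene, 58 windows from 14800001 to 17700000 between Nmbr and Cited2, was also higher on 129. It had 23 counts on 129 and 13 on CAS in replicate 1, a share of 63.9% (46.2 to 79.2%), and 46 and 22 in replicate 2, a share of 67.6% (55.2 to 78.5%). The interval of replicate 1 includes equal alleles. CAS counts were found in 10 and 13 of these windows, 129 counts in 18 and 30, and 25 windows were at 0 in all columns. Within the run the replicates differed most from 16 to 17 Mb, with 4 and 3 counts (129 and CAS), then 14 and 2. Without the run the 129 share of the first 20 Mb was 68.5% ± 1.18 (SD, n = 2).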

How the data were processed

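The authors deposited 1 table of counts, whole numbers per 50 kb window with a column per allele and replicate (0 further per-sample columns). Per the submitters' processing notes, Bowtie2, MACS2, SAMtools and bedtools were used with the mm10 build, with roles and versions not given in the sources used here. Column totals of the deposited counts differ between columns, with no visible normalization. Counts were summed over windows, bins and genes without scaling, in Python 3.11.15 with pandas 2.3.3 and SciPy 1.17.1. Gene positions and the promoter bases came from RefSeq (GRCm38.p6, the assembly behind mm10). All 1913 pairs of overlapping promoters on opposite strands were reverse complements. Coordinates are 1-based.

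The stretch, the gene lists and the rule for named windows were chosen with earlier results of these data known. Named were the 10 largest 129 excesses (ties by position), every window higher on CAS, the 10 windows with the most counts, the highest and lowest 1 Mb bins and genes of 6 lists by function, of whose 73 genes 62 lie in the stretch. The values of 1 listed gene are not reported here. The allelic contrast chose the stretch, so no test was run. Alternatives covered scaling, low counts, the boundary, gene content and each replicate alone.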

Additional observations from a re-analysis of the deposited data

How the results depend on the processing

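The 129 share of the first 20 Mb (68.3%) stayed above 50%, and its excess over the rest of chromosome 10 (11.6 points) above 0, under every alternative run. With windows of 4 or more counts the share was 64.6% and the excess 8.89 points. With windows above 0 in all 4 columns, which by construction leaves out those without CAS counts, they were 59.5% and 5.26 points. The share was 69.4% without the tenth of windows with the most counts and 69.7% in windows without a coding gene. It was 73.7%, 69.9% and 67.0% with the end at 10, 15 and 25 Mb, and the excess was 16.6 points at 10 Mb. With either replicate left out the share was 67.7 to 68.9%, the excess 10.0 to 13.2 points and the number of 1 Mb bins higher on 129 16 to 17. The count of 82 windows higher on 129 became 140 with equal allele totals, a scaling that by construction turns ties into 129 excesses, 51 among windows of 4 or more counts, 25 at a difference of 2 or more, and 112 to 139 with a replicate left out (139 without replicate 1). Bins of 500 kb gave 30 of 33 and bins of 2 Mb 9 of 9. The summed signal over the rest of the chromosome (0.631) was 0.796 in windows above 0 in at least 1 column, and 0.595 to 0.668 with a replicate left out. Chosen after seeing the data, it was 0.687 without the longest run with no coding gene, 0.736 at gene starts, 0.688 in gene bodies and 0.536 in windows without a coding gene. No paired analysis was possible because the contrast of the alleles, which is paired within each library, chose the stretch, so no test was run. The small counts per window limit the precision.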

Other observations

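The 129 share also differed with the level of signal. Among windows with 1 to 3 counts summed over the 4 columns it was 86.9% and 83.5% in replicates 1 and 2 (96 windows), against 71.9% and 58.5% in the rest of chromosome 10. With 4 to 7 counts it was 66.9% and 64.3% (76 windows), against 58.9% and 55.2%, and with 8 or more it was 64.5% and 62.8% (36 windows), against 57.1% and 53.1%. On the other autosomes the 3 classes lay between 45.8% and 50.0% over both replicates. The counts of both alleles correlated between replicates at Pearson's r = 0.845 over the 327 windows of the first 20 Mb and r = 0.823 over the rest of the chromosome. These sets include windows at 0 in all 4 columns. The correlation of the allelic ratio (r = 0.286 over 208 windows) left such windows out, so the values are not directly comparable.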
